A study of Homo sapiens with 22 samples.

Results

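Joined gene models are stretches of the transcriptome annotation in which neighbouring genes share exons or transcripts, so that exon usage was counted over both genes at once. They were taken as every row of the deposited exon table whose model name, without its AceView ending, holds "and" between a letter or digit and a capital letter. This gave 1029 exonic bins in 126 models, of 2635 bins in 636 models in all. The remaining 1606 bins lay in 510 models of a single gene. By its title the exon table covers only genes that contain m6A, so these bins do not stand for the whole transcriptome. An exonic bin is a piece of an exon, cut wherever any transcript of the model begins or ends an exon.

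The study knocked down HNRNPG or the m6A writer proteins METTL3 and METTL14 in HEK293T cells, a human embryonic kidney line, to ask how m6A and HNRNPG shape splicing. Its 12 RNA-seq libraries form 6 groups of 2: HNRNPG knockdown KD1, HNRNPG knockdown KD2 and their wild-type controls, and METTL3 knockdown, METTL14 knockdown and a separate set of wild-type controls. The labels name no reagent that sets KD1 apart from KD2, and whether libraries of the same group are separate cultures is not stated. Each bin has 1 value per knockdown in the authors' deposited table, without per-library values, errors or p-values, so no difference below has a replicate check, no test was possible and the depth behind a bin is unknown.

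HNRNPG, encoded by RBMX, helps to choose exons in the nucleus and binds RNA carrying N6-methyladenosine (m6A). METTL3 and METTL14 form the complex that writes most m6A on messenger RNA. RBMX, METTL3 and METTL14 were not among the joined gene names, so the knockdowns were not checked here. Exon usage asks whether reads on a bin change relative to the other bins of its model. When a model joins genes, that comparison sets the exons of one gene against those of its neighbour, so a change of splicing within one gene and a change in the level of one gene relative to the other cannot be told apart. For the same reason values within a model are tied together: where some bins are higher, others tend to be lower. All changes are log2 of knockdown over control, turned from the deposited control over knockdown, so a bin below 0 was used less in the knockdown.

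Of the 126 models, 108 joined 2 genes and 18 joined 3 genes. Joined models held a median of 5 listed bins, against 2 in single-gene models, and the largest held 53. Their bins had a median length of 114 bp, against 220 bp in single-gene models, and 108 of them were shorter than 20 bp. Each joined model carried a median of 1 listed m6A site, against 2 in single-gene models. A listed site lay inside 31 of the joined bins (3.01%), against 65 single-gene bins (4.05%). The closest listed site of the model lay a median of 15265 bp away from the bin in joined models, against 6017 bp in single-gene models.

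Bins were assigned to the joined genes by position. The deposited coordinates are hg19, and no annotation of that build was used here, so only the order, the overlap and the length of the genes were taken from RefSeq (GRCh38.p14). A bin or site counted as placed where every ordered division of the listed bins and sites among the genes, with a span of at most 1.25 times the length of each gene, put it in the same gene. An exon lying between the genes would be counted to one of them. The same length limit held in 476 of 501 matched single-gene models (95%). Of the joined models, 99 with 887 bins could be divided in this way. In 20 models with 101 bins one gene lay inside the other, as with small nucleolar RNAs in the introns of a host. The names of 2 models did not match, 3 models spanned more than their genes allow, and 2 models joined names that are now 1 gene. In all, 637 bins were placed in one gene, which is 71.8% of those in the divisible models and 61.9% of all joined bins. They fell in 117 genes of 73 models, and 43 of these models had bins placed in at least 2 genes.

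The pairs GALT with IL11RA and S1PR2 with DNMT1 show what is joined: separate genes, each with a start of its own. The 250 bases before the annotated start of each are shown because the listed bins or sites of these pairs divide between the genes. They come from RefSeq promoters in GRCh38.p14, 5′ to 3′ along the gene, and capitals mark GGGCGG or its reverse complement CCGCCC, the letters of a GC box. Their positions in that build are chr9:34646425-34646674 and chr9:34651935-34652184 on the plus strand, and chr19:10231332-10231581 and chr19:10194954-10195203 on the minus strand. IL11RA has 2 listed starts, and the one farther upstream is shown.
GALT: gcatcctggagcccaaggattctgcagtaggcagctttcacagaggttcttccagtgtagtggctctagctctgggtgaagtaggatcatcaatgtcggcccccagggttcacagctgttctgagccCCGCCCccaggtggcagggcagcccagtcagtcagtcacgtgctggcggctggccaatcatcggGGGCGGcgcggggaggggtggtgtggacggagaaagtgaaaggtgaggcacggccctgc
IL11RA: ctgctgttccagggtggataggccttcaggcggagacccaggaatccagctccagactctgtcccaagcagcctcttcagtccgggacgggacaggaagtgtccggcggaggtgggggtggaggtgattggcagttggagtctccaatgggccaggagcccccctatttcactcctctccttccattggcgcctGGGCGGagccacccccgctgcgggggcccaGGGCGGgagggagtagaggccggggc
S1PR2: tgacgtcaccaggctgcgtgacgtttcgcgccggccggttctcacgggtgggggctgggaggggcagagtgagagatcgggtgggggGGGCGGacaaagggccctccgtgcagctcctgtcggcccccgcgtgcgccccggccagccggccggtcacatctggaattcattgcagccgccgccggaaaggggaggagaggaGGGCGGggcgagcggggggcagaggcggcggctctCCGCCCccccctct
DNMT1: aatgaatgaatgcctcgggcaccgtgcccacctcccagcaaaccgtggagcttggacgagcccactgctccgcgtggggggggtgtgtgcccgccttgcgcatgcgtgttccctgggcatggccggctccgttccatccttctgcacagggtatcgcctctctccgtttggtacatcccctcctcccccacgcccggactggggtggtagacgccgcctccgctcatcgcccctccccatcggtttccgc
GALT and IL11RA hold the motif at 2 places each, S1PR2 holds it at 3 places and DNMT1 at 0. Among all 35116 listed promoters cut to the same length, 42.6% hold it. These matches describe the letters only.

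A smaller share of joined bins than of single-gene bins in the authors' deposited table passed a change of 0.5 in every knockdown. In HNRNPG KD1, 114 joined bins (11.1%) did so, 51 higher and 63 lower, against 17.6% of single-gene bins; over all bins listed, 15% passed, 6% higher and 9.03% lower. In HNRNPG KD2, 176 joined bins (17.1%) passed, 46 higher and 130 lower, against 24.7% of single-gene bins; over all bins 21.7% passed, 7.78% higher and 13.9% lower. In METTL3 knockdown, 168 joined bins (16.3%) passed, 57 higher and 111 lower, against 26.3% of single-gene bins; over all bins 22.4% passed, 7.63% higher and 14.8% lower. In METTL14 knockdown, 120 joined bins (11.7%) passed, 36 higher and 84 lower, against 18.8% of single-gene bins; over all bins 16% passed, 5.46% higher and 10.6% lower. The lower side was the larger in each knockdown, while the medians over all joined bins were near 0, at -0.02, -0.06, -0.04 and -0.06 in the same order, against -0.04, -0.06, -0.04 and -0.04 over all listed bins. Counted by model, the share with a bin past 0.5 was larger among joined models in every knockdown. In KD1, 60 of 126 joined models had such a bin, against 169 of 510 single-gene models. The counts were 68 against 217 in KD2 and in METTL3 knockdown, and 51 against 163 in METTL14 knockdown. Joined models list more bins each, with a median of 5 against 2. Calls were concentrated: the 5 models with the most calls held 31.6% of them in KD1, 31.2% in KD2, 29.8% in METTL3 knockdown and 37.5% in METTL14 knockdown. KIF1B with PGD led in KD1 with 16 bins, EEF1D with NAPRT1 in KD2 with 19 and in METTL3 knockdown with 20, and ATF2 with CHN1 in METTL14 knockdown with 17.

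**Figure D1:**
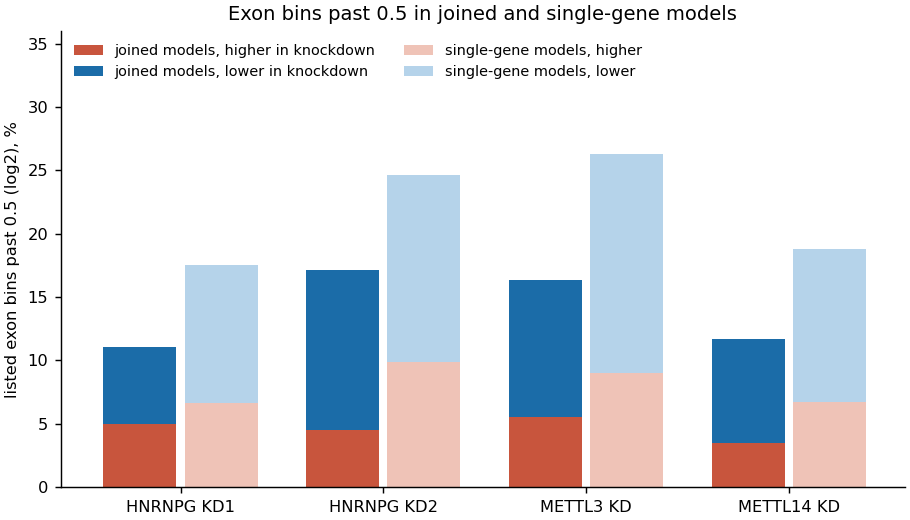
Share of listed exon bins (%, vertical axis) with a log2 change of at least 0.5 in each knockdown, for joined models (dark bars, left) and single-gene models (pale bars, right); red parts are higher and blue parts lower in the knockdown. Joined models reach 17.1% in HNRNPG KD2, against 24.7% of single-gene bins.

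The listed m6A sites of a joined model did not always lie in the gene that holds its bins. Of 242 sites in the divisible models, 165 were placed in one gene. Of the 637 placed bins, 274 lay in 50 genes with a placed site, 273 lay in 46 genes with no listed site, and 90 lay in genes for which a site was left undecided. Among the 547 decided bins, 49.9% were therefore in a gene that holds none of the listed sites of its model. With spans of up to 1.5 times the gene length, a setting chosen after seeing the data, this share was 40.3%. In 9 models every placed bin was in such a gene, among them COQ4 with 12 bins, SHB with 7, and HOMER3 and S1PR2 with 3 each. A gene with no listed site is not shown to lack m6A, because the table gives listed sites only. The table covers genes that contain m6A, and a joined model carried a median of 1 listed site for all its genes. Bins in a partner gene without a site are therefore in part built into the listing.

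Bins in genes with a listed site and in genes without one passed 0.5 at shares within 3 percentage points of each other in each knockdown, but in METTL3 knockdown more of them were lower in genes with a site and more were higher in genes without one. In genes with a site 31 of 274 bins (11.3%) passed in KD1, against 26 of 273 (9.52%) in genes without one. In KD2 the shares were 14.6% with a site and 14.3% without one. METTL3 knockdown gave 10.9% with a site and 11.4% without one, and METTL14 knockdown gave 10.9% with a site and 8.79% without one. All of these lie below the shares over all bins of the table given above for the same knockdown. By direction, METTL3 knockdown gave 11 higher and 19 lower bins in genes with a site, against 22 higher and 9 lower in genes without one. KD2 gave 8 higher and 32 lower with a site, against 16 higher and 23 lower without one. KD1 gave 20 higher and 11 lower with a site, against 14 and 12 without one, and METTL14 knockdown gave 8 higher and 22 lower, against 6 and 18. These bins come from 13 to 19 models with a site and 10 to 16 without one, and the difference in direction was not tested. Some genes held many of them. Of the 22 higher bins without a site in METTL3 knockdown, IL11RA held 6, DCUN1D3 4 and S1PR2 3. Of the 19 lower bins with a site there, GALT and MBD3 held 3 each. With spans of up to 1.5 times the gene length, 0 bins of GALT and of S1PR2 stayed placed. All placed bins of IL11RA, DCUN1D3 and MBD3 did, but the site status of IL11RA at that span is not reported here. Counts by direction are not given at that span, so the contrast in METTL3 knockdown rests on the narrower one. KIF1B held 16 of the 20 higher bins with a site in KD1. ATF2 held 11 of the 18 lower bins without one in METTL14 knockdown. Bins of a model are tied together, so these counts are not independent. Among the 90 bins in genes for which a site was left undecided, 5.56% passed in KD1, 20% in KD2, 25.6% in METTL3 knockdown and 7.78% in METTL14 knockdown.

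**Figure D2:**
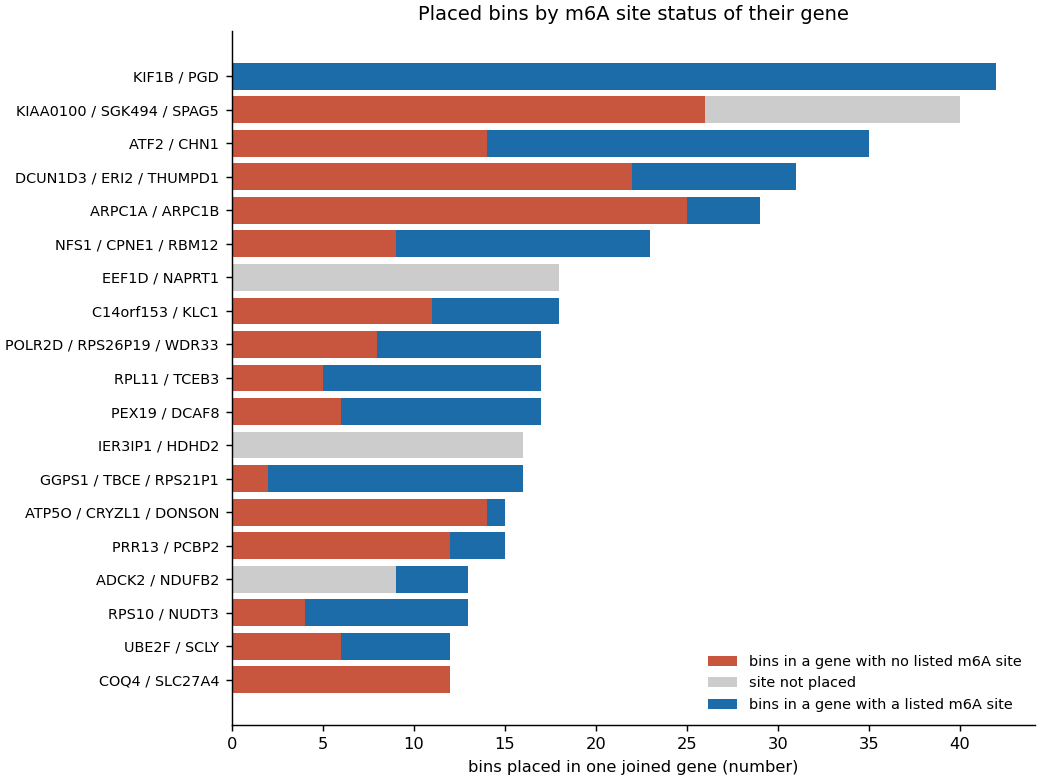
Number of placed bins (horizontal axis) in 19 of the 20 joined models with most of them, by whether their gene holds a listed m6A site (blue), holds none (red) or could not be decided (grey). All 42 KIF1B bins lie in a gene with a site and all 12 COQ4 bins in a gene without one.

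The joined genes of a model often sat on different sides of 0. Among the 43 models with bins in at least 2 genes, gene medians lay on opposite sides in 34 models in KD1, 33 in KD2, 34 in METTL3 knockdown and 31 in METTL14 knockdown. With spans of up to 1.5 times the gene length, only 26 models had bins in at least 2 genes, and the counts were 22, 21, 20 and 20. Of the genes with at least 3 placed bins, 10 then had none decided: NDUFB2, GALT, GGPS1, POLR2D, PRR13, RBM14, RPS10, S1PR2, CRTC2 and SCLY. Others kept only some of their bins, among them SPAG5 with 10 of 26, ERI2 with 3 of 17, ATF2 with 9 of 14 and PEX19 with 1 of 6. Among the 19 models with at least 3 bins in each of at least 2 genes, opposite medians were found in 16, 17, 14 and 15 models. The bins of the gene with the highest median and the gene with the lowest did not overlap in 10 of these 19 in KD1, 12 in KD2, 8 in METTL3 knockdown and 7 in METTL14 knockdown, and in 16 in at least 1 knockdown. The genes were picked by their medians, and no share for genes without such a pick was computed. Because usage is relative to the whole model, opposite sides are in part built into the measure.

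**Figure D3:**
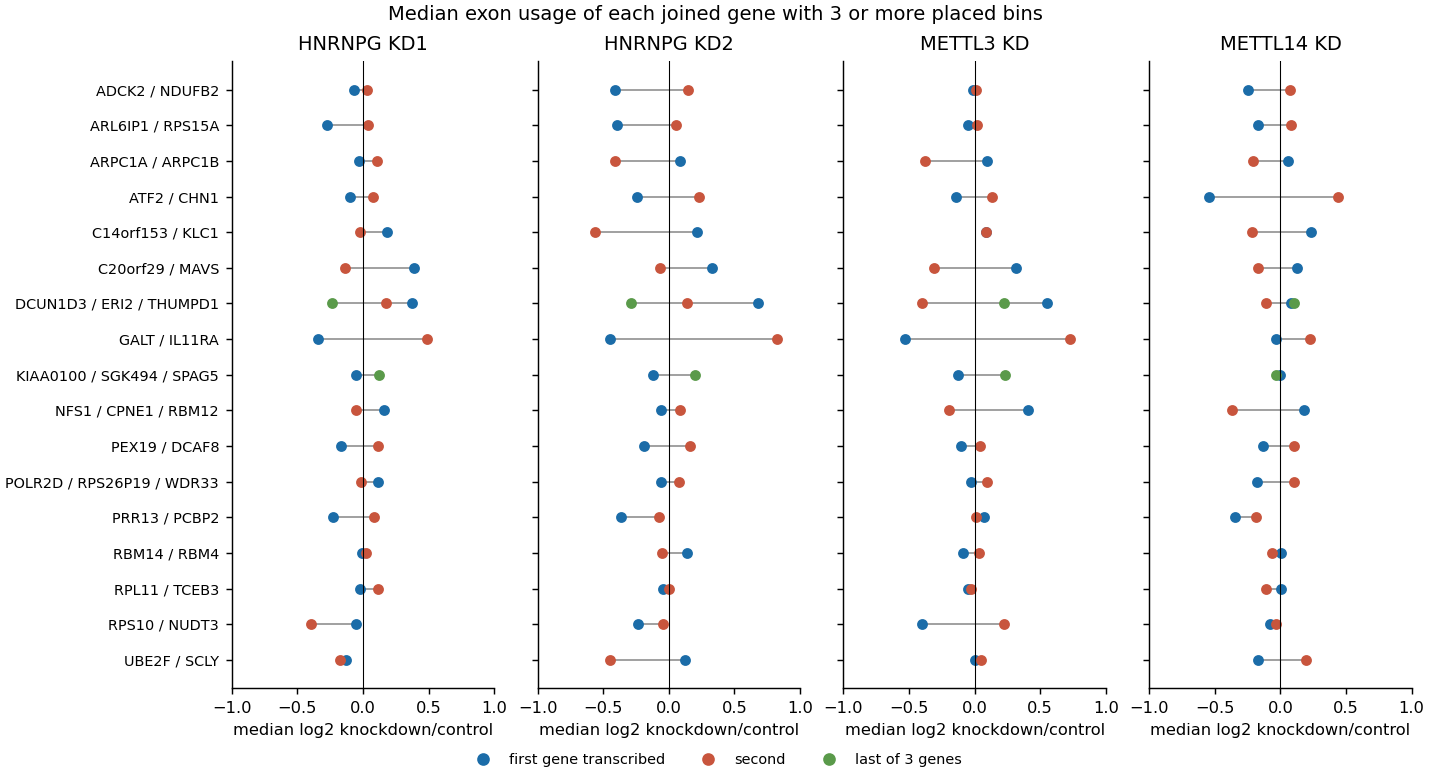
Median log2 knockdown over control (horizontal axes) of each gene with at least 3 placed bins in 17 of the 19 models that have at least 2 such genes, with 1 panel per knockdown; blue, red and green points are the first, second and last gene transcribed, and a line joins the genes of a model. GALT and IL11RA are wide apart in HNRNPG KD1, HNRNPG KD2 and METTL3 knockdown.

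GALT, which encodes an enzyme of galactose breakdown, and IL11RA, which encodes the receptor chain for interleukin 11, divided on chromosome 9 at the span limit of 1.25. In the authors' deposited table the 5 listed GALT bins, chr9:34647489-34647702, were all lower, with medians of -0.34 in KD1, -0.45 in KD2, -0.53 in METTL3 knockdown and -0.03 in METTL14 knockdown. The 6 listed IL11RA bins, chr9:34658559-34661831, were all higher, with medians of 0.49, 0.83, 0.72 and 0.22 in the same order. The genes did not overlap in any knockdown. Every IL11RA bin passed 0.5 in KD2 and in METTL3 knockdown, and the 353-bp bin 160 stood at 0.53 in KD1, 0.84 in KD2, 0.54 in METTL3 knockdown and 0.10 in METTL14 knockdown. Both listed sites lay on the GALT side. With spans of up to 1.5 times the gene length, all 6 IL11RA bins were placed as before, but all 5 GALT bins were left undecided, so the division of this pair rests on the narrower span.

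ARPC1A and ARPC1B encode alternative forms of the same subunit of the Arp2/3 complex, which starts branched actin filaments. The 4 ARPC1A bins lay close to 0 in the authors' deposited table, between 0.06 and 0.11 in KD2 and between 0.08 and 0.10 in METTL3 knockdown. All 25 ARPC1B bins were lower in KD2, with a median of -0.41 and a range of -0.60 to -0.28, and all 25 were lower in METTL3 knockdown, with a median of -0.38. METTL14 knockdown gave ARPC1B a median of -0.21, and KD1 a median of 0.10. The paralogs share sequence, and whether reads were in part split between them was not tested. The 1 listed site lay in ARPC1A.

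In the model of DCUN1D3, ERI2 and THUMPD1 on chromosome 16, each gene had a block of placed bins. A further 4 bins, 61 to 64, could lie in ERI2 or DCUN1D3 by the length rule. Their medians were 0.21 in KD1, 0.40 in KD2, -0.40 in METTL3 knockdown and -0.25 in METTL14 knockdown. With the wider span, only 3 of the 17 ERI2 bins stayed placed. DCUN1D3 encodes a factor of cullin neddylation, ERI2 a putative exonuclease and THUMPD1 a protein of transfer RNA acetylation. The 5 DCUN1D3 bins were higher in all knockdowns, with medians of 0.38 in KD1, 0.68 in KD2, 0.55 in METTL3 knockdown and 0.08 in METTL14 knockdown. The 9 THUMPD1 bins, on the gene that holds the 1 listed site, were all lower in KD1 (median -0.24) and KD2 (-0.28) and all higher in METTL3 knockdown (0.22) and METTL14 knockdown (0.10). The 17 ERI2 bins had medians of 0.18 in KD1, 0.14 in KD2, -0.40 in METTL3 knockdown and -0.11 in METTL14 knockdown. In KD1 and in KD2, 13 of these bins were higher and 4 were lower by at least 0.5. The lower ones were the last 3 listed ERI2 bins in the direction of transcription, 28 to 33, and bin 38. These bins were picked after their values were seen. Bin 33 stood at -2.39 in KD1 and -8.03 in KD2, and bin 32 at -7.79 in KD1 and -2.15 in KD2. Bin 28 stood at -0.53 in KD1 and -1.72 in KD2, and the 856-bp bin 38 at -0.96 in KD1 and -1.66 in KD2. With no counts in the authors' deposited table, the error of values this far from 0 is unknown.

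**Figure D4:**
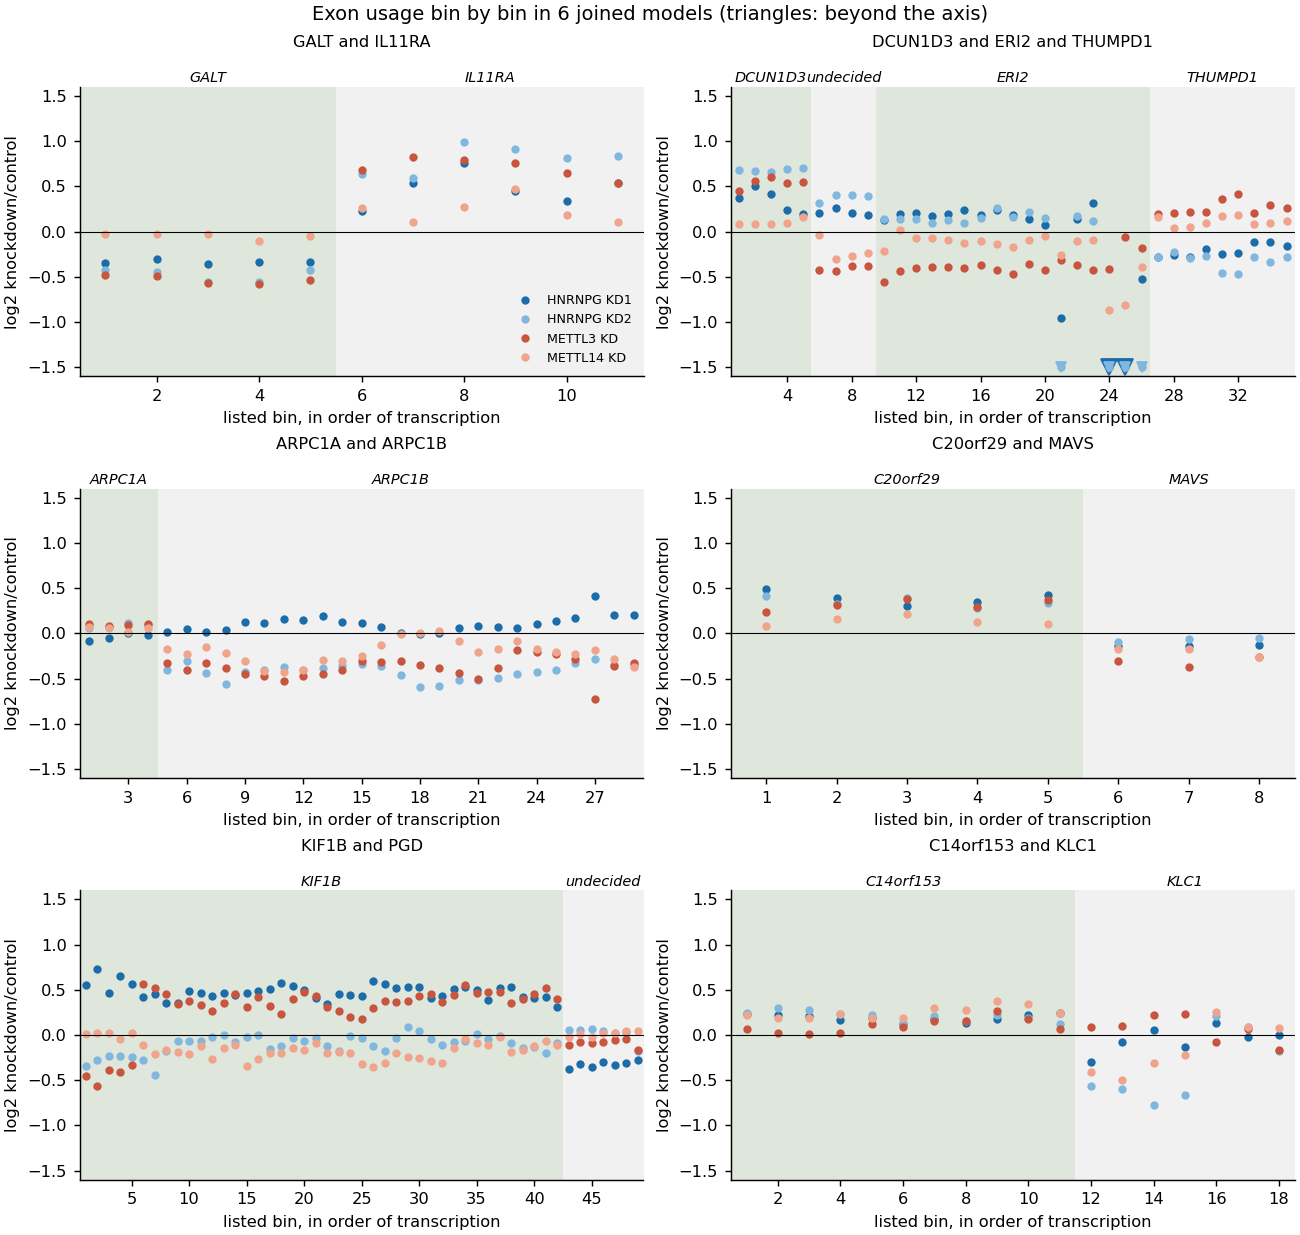
Log2 knockdown over control (vertical axes, cut at 1.5 on either side, with values beyond shown as triangles) of every listed bin, in order of transcription (horizontal axes), in 6 joined models; colours are the 4 knockdowns and shaded blocks the gene of each bin. IL11RA bins are above 0 and GALT bins below it in all 4 knockdowns.

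KIF1B, a kinesin motor of mitochondrial and vesicle transport, was joined with PGD, an enzyme of the pentose phosphate pathway, and this was the joined model with the most calls in KD1. All 42 KIF1B bins were higher in KD1, with a median of 0.47 and a range of 0.31 to 0.73, and 16 passed 0.5. In KD2 their median was -0.08 and 0 passed. In METTL14 knockdown the median was -0.17, with 38 of 42 bins lower, and 0 passed. In METTL3 knockdown the 5 leftmost listed bins, 38 to 42, were lower, between -0.56 and -0.33, and the other 37 were all higher, between 0.18 and 0.57. This run of 5 bins was chosen after its values were seen. The 7 rightmost bins, 119 to 152, could lie in either gene by the length rule and had medians of -0.32 in KD1, 0.04 in KD2, -0.08 in METTL3 knockdown and 0.02 in METTL14 knockdown. KD1 and KD2 share their controls and differ here, and the cause was not tested.

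Several further pairs split in the same sense across knockdowns. C20orf29, a subunit of an adaptor complex of endosomes, had 5 bins that were higher in all knockdowns, with medians of 0.39, 0.33, 0.32 and 0.13 in KD1, KD2, METTL3 and METTL14 knockdown. MAVS, the mitochondrial adaptor of antiviral RNA sensing, had 3 bins that were lower in all of them, at -0.14, -0.06, -0.31 and -0.17. ARL6IP1, an endoplasmic reticulum membrane protein, had 5 bins below 0 in all knockdowns, with medians of -0.28, -0.39, -0.05 and -0.17. Its partner RPS15A, a protein of the small ribosomal subunit, had 4 bins just above 0, at 0.04, 0.05, 0.02 and 0.08. PEX19, which carries membrane proteins to peroxisomes, had 6 bins below 0 in all knockdowns, with medians between -0.19 and -0.10. Bins of DCAF8, a substrate receptor of a ubiquitin ligase, had medians between 0.04 and 0.16. In none of these 3 models did the size reach 0.5 for a gene median.

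In another pair only some bins of a gene passed 0.5. The 11 bins of C14orf153 were all higher in the 4 knockdowns, with medians of 0.18 in KD1, 0.22 in KD2, 0.09 in METTL3 knockdown and 0.23 in METTL14 knockdown. Its neighbour KLC1, a light chain of kinesin, had 4 consecutive listed bins, 86 to 93, between -0.78 and -0.57 in KD2 and between -0.50 and -0.21 in METTL14 knockdown, while its 3 last bins lay between -0.17 and 0.21 in KD2. This run within KLC1 was chosen after its values were seen.

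In the model of KIAA0100, SGK494 and SPAG5, the 26 bins of SPAG5, a protein of the mitotic spindle, formed an even block. They were all higher in KD1 (median 0.12), KD2 (0.20) and METTL3 knockdown (0.23) and near 0 in METTL14 knockdown (-0.04). Of the 14 KIAA0100 bins, 12 lay below 0 in KD1, KD2 and METTL3 knockdown. The 143-bp bin 140 stood apart from its neighbours at 0.70 in KD1, 0.79 in KD2, 1.01 in METTL3 knockdown and -0.13 in METTL14 knockdown. The 252-bp bin 150 did likewise, at 1.03, 0.74, 0.98 and -0.31.

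Other models with many bins showed smaller or patchy differences between their genes. In NFS1, CPNE1 and RBM12, the 9 bins of NFS1, a cysteine desulfurase for iron-sulfur clusters, had a median of 0.41 in METTL3 knockdown, against -0.20 for 14 bins counted to CPNE1, whose span also holds RBM12. In ADCK2 and NDUFB2, the 9 ADCK2 bins had medians of -0.41 in KD2 and -0.25 in METTL14 knockdown. The 4 bins of NDUFB2, a subunit of respiratory complex I, had medians of 0.15 and 0.07 there. In GGPS1 and TBCE, 8 consecutive listed GGPS1 bins, 17 to 25, lay between -0.79 and -0.46 in KD2, while 5 later bins, 29 to 34, lay between 0.14 and 0.30, runs that were chosen after their values were seen. GGPS1 makes geranylgeranyl diphosphate for the modification of proteins. In ATF2 and CHN1, the 14 ATF2 bins had a median of -0.55 in METTL14 knockdown, against 0.44 for the 21 CHN1 bins, and all 4 listed sites lay in CHN1.

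In 2 joined models with ribosomal protein genes, RPL11 and RPS10, a single long bin changed by more than any other bin of its gene in KD2 and METTL3 knockdown. RPL11, of the large ribosomal subunit, was joined with TCEB3, a subunit of the elongin elongation factor. The 548-bp RPL11 bin 9 stood, in the authors' deposited table, at -0.04 in KD1, -2.40 in KD2, -3.91 in METTL3 knockdown and 0.03 in METTL14 knockdown. Among the other 11 RPL11 bins, the 6 listed from 10 to 20 lay between -0.14 and 0.10 in all 4 knockdowns. Bins 3 to 5, each of at most 14 bp, lay between -0.34 and -0.32 in KD1 and between -0.28 and -0.26 in METTL3 knockdown. The 6-bp bin 7 stood at 0.21 in METTL3 knockdown and within 0.10 of 0 in the others. The 711-bp bin 31 stood at -0.68 in KD1, -0.18 in KD2, 0.50 in METTL3 knockdown and 0.35 in METTL14 knockdown. RPS10, of the small subunit, was joined with NUDT3, a phosphohydrolase. Its 435-bp bin 49 stood at -0.92 in KD1, -1.07 in KD2, -2.06 in METTL3 knockdown and 0.12 in METTL14 knockdown. The 3 other RPS10 bins were not steady, at 0.22, 0.34 and -0.33 in KD1 and at -0.41, -0.39 and -0.24 in METTL3 knockdown. In the model of ARL6IP1 and RPS15A, described above, 0 bins passed 0.5 in any knockdown. The 9 NUDT3 bins, with 12 listed sites on their side, had medians of -0.40 in KD1 and 0.22 in METTL3 knockdown. Whether these long bins are retained introns or alternative ends was not tested.

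The ribosome and translation list was chosen with earlier results of these data known. The 20 models with a name on it held 167 listed bins, counting those of partner genes. In KD2, 3 were at least 0.5 higher and 40 lower, and in METTL3 knockdown 10 were higher and 35 lower. KD1 gave 3 higher and 8 lower, and METTL14 knockdown gave 7 higher and 11 lower. In all, 25.7% passed in KD2 and 26.9% in METTL3 knockdown, against 21.7% and 22.4% over all listed bins, and 6.59% passed in KD1 and 10.8% in METTL14 knockdown, against 15% and 16%. The median over these bins was -0.08 in KD2 and -0.09 in METTL3 knockdown, against -0.06 and -0.04 over all listed bins. Much of the KD2 count came from the model of EEF1D, a translation elongation factor subunit: without it 3 were higher and 21 lower in KD2, and 10 were higher and 15 lower in METTL3 knockdown. Those shares, 17.1% and 17.9% of 140 bins, lie below the shares over all listed bins. Because bins of partner genes are included, these counts do not describe ribosome and translation genes alone. The name RPS21P1, for example, brings in 14 bins placed in GGPS1, of which 6 were at least 0.5 lower in KD2.

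EEF1D was joined with NAPRT1, an enzyme of NAD synthesis, on chromosome 8. The 18 EEF1D bins of the authors' deposited table had medians of -0.33 in KD1, -0.51 in KD2, -0.68 in METTL3 knockdown and 0.11 in METTL14 knockdown, and all 18 were lower in METTL3 knockdown. The 80-bp bin 111 stood at -0.64, -1.02, -1.46 and -0.10. A block of 9 bins at the NAPRT1 end, chr8:144657361-144659347, could not be placed by length. All 9 were at least 0.58 lower in KD2, with a median of -0.79, and between 0.34 and 0.64 higher in METTL14 knockdown.

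In several models all or nearly all placed bins lay in 1 gene. S1PR2, a receptor for sphingosine 1-phosphate, was joined with DNMT1, the maintenance DNA methyltransferase. Its 3 listed bins were higher in all knockdowns, with medians of 0.73 in KD1, 0.30 in KD2, 1.13 in METTL3 knockdown and 0.48 in METTL14 knockdown. All 6 listed sites of this model lay towards DNMT1, which had no listed bin. In COQ4, of coenzyme Q synthesis, the 6 leftmost bins, 2 to 16, were all higher, with medians of 0.44, 0.47, 0.22 and 0.63 in KD1, KD2, METTL3 and METTL14 knockdown. The 6 other COQ4 bins were all lower, with medians of -0.20, -0.10, -0.33 and -0.23. These COQ4 runs were chosen after their values were seen.

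ANAPC11, a subunit of the anaphase-promoting complex, was joined with NPB, a neuropeptide. All 6 ANAPC11 bins of the authors' deposited table were lower in KD2, with a median of -1.82, and in METTL14 knockdown, with a median of -0.80, and all passed 0.5 in both. Bin 45, of 94 bp, stood at -6.77 in KD2, against -0.98 in KD1. KD1 had a median of -0.14 and METTL3 knockdown of -0.31.

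HDHD2, a hydrolase-like protein, was joined with IER3IP1, of the endoplasmic reticulum. Its 15 bins were lower in all 4 knockdowns, with medians of -0.13 in KD1, -0.29 in KD2, -0.20 in METTL3 knockdown and -0.31 in METTL14 knockdown. The 146-bp bin 24 was the lowest, at -1.20, -1.64, -0.59 and -6.73. The 1 bin placed in IER3IP1 was higher in all 4, at 0.23, 0.42, 0.08 and 0.20. MBD3, of the NuRD chromatin complex, had 3 bins that were lower in all knockdowns, with medians of -0.44, -0.96, -0.65 and -0.71, and the 3076-bp bin 1 stood at -1.18 in KD2. The 1 bin of its neighbour UQCR11, of respiratory complex III, lay between 0.01 and 0.12.

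RNF103, a ubiquitin ligase of the endoplasmic reticulum, was joined with VPS24, a subunit of ESCRT-III in membrane scission. Its 7 bins were all higher in KD1 (median 0.23), KD2 (0.22) and METTL14 knockdown (0.16) and all lower in METTL3 knockdown (-0.44). The 1 VPS24 bin, 3840 bp long, stood at -1.29, -0.29, -0.56 and 0.17 in KD1, KD2, METTL14 and METTL3 knockdown, so its sign was opposite to that of RNF103 in each. In the model of SAR1A, TYSND1 and AIFM2, 14 bins numbered 38 to 54 were all lower in KD2, with a median of -0.64, and could not be placed in 1 gene. The 3 placed SAR1A bins, of a GTPase of COPII vesicles, lay between 0.06 and 0.08 in KD2.

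Nested models cannot be divided by position. Of their 101 bins, 18.8% passed 0.5 in KD1, 25.7% in KD2, 26.7% in METTL3 knockdown and 30.7% in METTL14 knockdown, against 9.7%, 16.5%, 14.7% and 9.47% of the 887 bins in divisible models. Over all listed bins the shares were 15%, 21.7%, 22.4% and 16%, so nested bins lay within 5 percentage points of them in KD1, KD2 and METTL3 knockdown and further above in METTL14 knockdown. SNHG4, a host of small nucleolar RNA, overlaps MATR3, a nuclear matrix protein that binds RNA. Their 19 bins were lower in all knockdowns, with medians of -0.29 in KD1, -0.36 in KD2, -0.46 in METTL3 knockdown and -0.51 in METTL14 knockdown. This 1 model held 10 of the 24 nested bins that were at least 0.5 lower in METTL14 knockdown, and its bins are tied together. In METTL14 knockdown the 7 leftmost bins lay between -0.32 and -0.05 and the next 11 between -0.68 and -0.41. RNF149, another ubiquitin ligase, with SNORD89, had 6 bins lower in KD2 (median -0.62) and METTL3 knockdown (-0.63). LUC7L2, a splicing factor of the U1 snRNP, with C7orf55, had 16 bins with medians of -0.36 in KD1, 0.28 in KD2, -0.23 in METTL3 knockdown and 0.27 in METTL14 knockdown, so KD1 and KD2 lay on different sides. RPL37, of the large ribosomal subunit, with SNORD72, had 5 bins, 4 to 8, between 0.10 and 0.40 higher, and 5 bins, 9 to 14, between -0.67 and -0.14 in all knockdowns. In RPL37 the 304-bp bin 24 stood at 0.27 in KD1, -0.78 in KD2, -0.77 in METTL3 knockdown and 1.81 in METTL14 knockdown. The runs within MATR3 and RPL37 were chosen after their values were seen.

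Changes beyond 5 in the authors' deposited table were seen in 8 of 1029 joined bins and 7 of 1606 single-gene bins. Besides those of ERI2, ANAPC11 and HDHD2, they were a 49-bp bin of HOMER3, a scaffold protein of synapses, at -6.36 in KD2, and an 864-bp bin of the pseudogene RPL7AP54. The RPL7AP54 bin stood at -6.50 in KD1, -1.5 in KD2, 1.38 in METTL3 knockdown and -0.97 in METTL14 knockdown. A 9-bp bin of CHN1 stood at 7.27 in METTL3 knockdown and 7.00 in METTL14 knockdown. A bin in the model of RASA4P and POLR2J4 stood at -7.82 in METTL3 knockdown, in genes with near-identical copies, so its value is uncertain.

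HNRNPG and METTL knockdowns have separate controls and can be set against each other. Of 176 joined bins past 0.5 in KD2 and 168 in METTL3 knockdown, 82 passed in both (46.6% of the first and 48.8% of the second), and 72 of them were on the same side, 20 higher and 52 lower. KD2 and METTL14 knockdown shared 65 bins, which is 36.9% of the KD2 bins and 54.2% of the METTL14 bins, with 54 on the same side. KD1 and METTL3 knockdown shared 50 bins (43.9% and 29.8%), with 40 on the same side. KD1 and METTL14 knockdown shared 29 bins (25.4% and 24.2%), with 24 on the same side. In single-gene models, KD2 and METTL3 knockdown shared 56.3% and 52.8% of their bins, and KD2 and METTL14 knockdown 38.1% and 50%. KD1 and METTL3 knockdown shared 52.8% and 35.3% there, and KD1 and METTL14 knockdown 45.0% and 42.1%. The joined shares were thus lower, except the 54.2% of METTL14 bins shared with KD2. The share on the same side, 80% to 87.8% in joined models, was 78.7% to 89.4% in single-gene models. Bins of 1 model are tied together, so these counts are not independent.

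Just 7 joined bins (0.680%), in 6 models, passed 0.5 on one side in all 4 knockdowns, against 43 of all bins (1.63%). Of these 7 bins, 3 were higher and 4 lower, and only 6 of the 7 are described here. Bin 24 of HDHD2 is given above. Bin 2 of MBD3, 7 bp long, stood at -0.61 in KD1, -0.96 in KD2, -0.65 in METTL3 knockdown and -0.76 in METTL14 knockdown. The 9-bp bin of CHN1 stood at 0.77 in KD1 and 1.57 in KD2, beside the METTL3 and METTL14 values above. Bin 85 of ATF2, 68 bp long, stood at -0.69 in KD1, -1.57 in KD2, -2.20 in METTL3 knockdown and -1.36 in METTL14 knockdown. Bin 32 of ADRBK2, a kinase of G protein-coupled receptors, was 963 bp long and stood at -0.58, -0.66, -0.72 and -0.62. In ZNF318, a zinc finger protein, the 140-bp bin 50, chr6:43322262-43322401, stood at 1.21, 1.13, 0.55 and 0.78, beside a second ZNF318 bin between -0.10 and -0.04 in all knockdowns.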

How the data were processed

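The RNA-seq of HEK293T cells comprised 6 groups with 2 libraries each (12 in all), and 10 PAR-CLIP libraries were not analysed here. The hg19 build and, among other tools, TopHat 1.1.4 and Bowtie 1.0.0 appear in the submitters' processing notes, with no role given. Per the file headers, each value is the log2 of control divided by knockdown for 1 bin, computed and deposited by the authors with DEXSeq, which the labels name with no version. The title of the deposited exon data names exons in HC-m6A-containing genes, so joined and single-gene bins alike come from models chosen for m6A. Normalization, any further rule for listing a bin and the library depth have no statement in the labels or headers used here. Signs were turned to knockdown over control. A bin counted as past the size at an absolute log2 change of 0.5. Medians and counts are descriptions, and no test was run.

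Bins were placed by the order, overlap and length of the joined genes in RefSeq (GRCh38.p14), with 268 of 270 joined names matched. This replaced the overlap with an hg19 annotation that had been planned. The placing of these genes was not tested against an hg19 annotation. Members, lists and the size were chosen with earlier results of these data known.

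Named models were the 15 with most bins, those of the 5 highest and 5 lowest bins of at least 5 bp per knockdown, those with a bin past 0.5 on one side in all 4, those with genes of at least 3 bins on opposite sides by 0.25 each, and up to 4 per family list of 12. Some were left out for length, a few results are not reported here, and models with an even split were added after their values were seen. Alternatives covered sizes of 0.25 and 1, bins of at least 20 bp, gene models as units, values beyond 5 left out, and length multiples of 1.1 and 1.5. Python 3.11.15, pandas 2.3.3, numpy 2.4.6 and matplotlib 3.10.9 were used.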

Additional observations from a re-analysis of the deposited data

How the results depend on the processing

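Of 90 recomputed values, 66 stayed close to the value reported and 24 moved. Most of them are shares or counts, which have no sign. Only the medians of joined bins could change sign, and each of those stayed below 0. At a size of 0.25, 35.1% of joined bins passed in KD1, 47.6% in KD2, 48.2% in METTL3 knockdown and 35.5% in METTL14 knockdown, and at a size of 1 the shares were 1.36%, 2.92%, 2.43% and 1.46%. The share lower among bins past a size of 1 was 71.4% in KD1, 83.3% in KD2 and 60% in METTL14 knockdown, and with gene models as units 52.6% were lower in METTL3 knockdown. Of bins past both, 100% of those in KD2 and METTL14 knockdown were on the same side at a size of 1, and 77.9% of those in KD2 and METTL3 knockdown at 0.25. A length multiple of 1.5, chosen after seeing the data, gave 26 models with bins in at least 2 genes (50 at 1.1) and 40.3% of decided bins in genes with no listed site. It gave opposite medians in 22 (KD1), 21 (KD2), 20 (METTL3 knockdown) and 20 (METTL14 knockdown) models, where fewer models could be divided. Requiring 3 bins per gene gave 16, 17, 14 and 15. Bins placed in one gene numbered 708 at 1.1 and 506 at 1.5.

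Overlap with the whole span of a gene in an hg19 annotation was not run. No paired analysis was possible because the table holds 1 value per bin and comparison and no value per library, and libraries could not be left out for the same reason.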
